A study of Mus musculus with 12 samples.

Results

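CircRNAs of 2 mouse cell lines that are not tumour lines were compared: Eph4-ev, labelled as breast epithelial cells, and Melan-a, labelled as melanocytes. The circRNAs are those that both deposited tables list, which are 8928 of the 13474 circRNAs of the series, counted in 6 of its 12 libraries (3 of Eph4-ev and 3 of Melan-a). The labels name no treatment of the cells. Each cell type is represented by 1 line, and the labels do not say whether its libraries came from separate cultures, so p-values measure the spread between these libraries, which may be technical. The series also holds 4T1 (breast cancer cells) and B16F10 (melanoma cells), with 3 libraries each. Its title concerns circRNAs specific to tumours, and there each non-tumour line is the counterpart of the tumour line of its tissue. Eph4-ev was deposited in the table of 4T1 and Melan-a in that of B16F10, so a difference between lines and a difference between tables cannot be told apart.

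A circRNA forms when the spliceosome joins the end of an exon back to the start of the same or an earlier exon. The closed ring has no free end, is resistant to exonucleases such as RNase R, with which this RNA was treated, and is usually long lived in the cell. It is counted by reads across the back-spliced junction, which the linear RNA of the host gene does not have. Mammary epithelial cells hold to each other by adherens junctions, tight junctions and desmosomes. Melanocytes derive from the neural crest and make melanin in melanosomes.

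The join does not treat the lines alike. Rows that only 1 table lists held 0.170%, 0.185% and 3.41% of the junction reads of Eph4-ev replicates 1 to 3, against 16.7%, 16.9% and 16.3% of those of Melan-a replicates 1 to 3, and Eph4-ev replicate 3 stood apart within its line. The melanocyte table lists 3409 of the joined circRNAs with 0 reads in all of its libraries, whereas every row of the mammary table has reads. A circRNA found in Eph4-ev and absent from both pigment lines could therefore be kept, but one found in Melan-a could be kept only if 4T1 or Eph4-ev had reads of it. Of the joined circRNAs, 7535 had reads in Eph4-ev and 4407 in Melan-a, 4054 of them in both lines, and 948 had reads in all 6 libraries. A ring missing from a bulk library can mean fewer cells with it or fewer copies per cell, which cannot be told apart.

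Depth was 50648, 56649 and 55549 junction reads in Eph4-ev, against 25072, 33557 and 25157 in Melan-a. Levels are in RPM (junction reads scaled to 1000000 in all over the library's whole table), so 1 read was worth 17.7 to 19.7 RPM in Eph4-ev and 29.8 to 39.9 RPM in Melan-a. Across 1578 circRNAs, log2 levels correlated at 0.78 to 0.80 within Eph4-ev, at 0.68 to 0.70 within Melan-a, and at 0.27 to 0.32 between libraries of the 2 lines (Pearson's r across circRNAs of libraries, as a description). Circles of 15 epithelial markers summed to 1362 to 1818 RPM in Eph4-ev, from Cdh1, Epcam, Esrp1, Grhl2 and Itgb4, and to 0 to 39.9 RPM in Melan-a. Circles of 15 melanocyte markers summed to 7100, 9894 and 5565 RPM in Melan-a replicates 1 to 3, from 10 of the markers. Of these sums, 1 Pmel ring held 4467, 6377 and 3458 RPM. The joined set lists 2 of the 10 markers, Mitf and Pax3, which summed to 90.0 to 237 RPM in Eph4-ev. The rest are listed in the melanocyte table alone and have no value in Eph4-ev, so these sums cannot be compared between the lines. Of Mitf and Pax3, only Pax3 had enough joined reads to test. Its joined rings had 12, 2 and 5 reads in Eph4-ev, against 3, 13 and 1 reads in Melan-a. It was not called (log2 fold -0.65, adjusted p = 0.663 by edgeR). Neither table lists a single-host ring of the keratins Krt5, Krt8, Krt14 and Krt18, or of the 10 fibroblast and 8 immune markers. No level is given for these genes. Of 6 glial markers only Cdh19 is listed, in the melanocyte table alone, with 199 to 268 RPM in Melan-a.

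More circRNAs were detected in Eph4-ev. At least 1 read was found for 4995, 5450 and 4398 circRNAs in the 3 Eph4-ev libraries, against 2542, 3040 and 2497 in the 3 Melan-a libraries (4948 ± 528 and 2693 ± 301, SD, n = 3 each). The lines did not overlap, and the exact two-sided permutation p of 0.1 is the smallest that 3 against 3 libraries can give. Thinned to 25072 reads each, the Eph4-ev libraries still held 4239, 4465 and 3704 circRNAs, against 2542, 2853 and 2497 in Melan-a. The thinned reads include those outside the joined rows, a larger share in Melan-a, so depth over joined rows was not made equal. Over all rows of its own table, without thinning, each Eph4-ev library held 4962 to 5503 and each Melan-a library 3343 to 4251.

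Reads were spread more evenly in Eph4-ev. The 10 most abundant joined circRNAs held 8.73%, 8.26% and 8.70% of junction reads in the Eph4-ev libraries, against 13.5%, 11.99% and 13.1% in the Melan-a libraries (exact permutation p = 0.1, two-sided). Circles that span at least 50 kb of the genome took 2.19%, 2.10% and 1.85% of joined reads in Eph4-ev and 3.23%, 3.47% and 3.01% in Melan-a (exact permutation p = 0.1). Circles of 1 exon took 10.9%, 10.9% and 11.3% in Eph4-ev and 12.04%, 9.32% and 12.2% in Melan-a, where the ranges overlapped (exact permutation p = 1). The lines shared 3 of their 10, 22 of their 50 and 52 of their 100 most abundant joined circRNAs.

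Of 1578 circRNAs with enough reads to test, 275 were higher in Eph4-ev (17.4%) and 149 were lower (9.44%), together 26.9%, by edgeR's quasi-likelihood test at an adjusted p under 0.05 (Benjamini-Hochberg). RPM ranges of the lines did not overlap for 43.0% of the tested circRNAs. The median log2 fold over all tested was 0.30, and it was 0.02 when libraries were scaled to reads of the joined circRNAs alone, with 233 higher and 184 lower. Without Eph4-ev replicate 3 the counts were 188 higher and 113 lower, and without Eph4-ev replicate 2 they were 143 and 90. The called circRNAs came from 224 hosts in the higher group and 129 in the lower group. The median span was 5776 bases for higher, 10373 bases for lower and 7832.5 bases for uncalled circRNAs, with a median of 3 exons in each group.

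**Figure D1:**
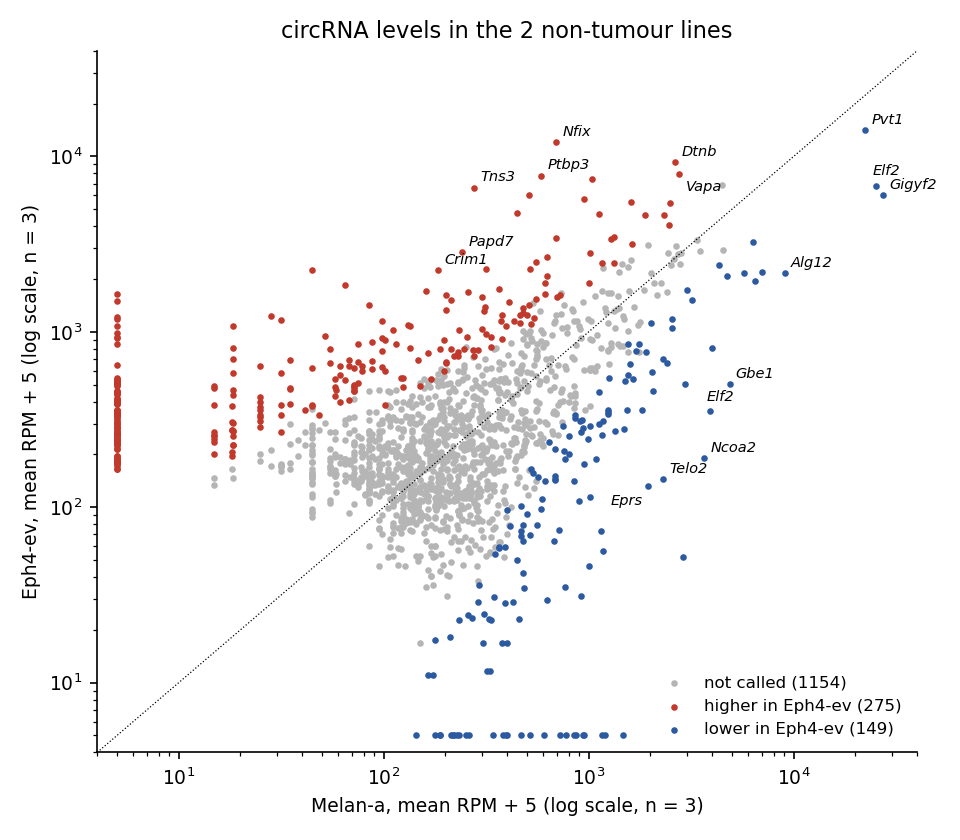
Mean RPM plus 5 of each tested circRNA in Eph4-ev (vertical axis) and Melan-a (horizontal axis), both on log scales, n = 3 libraries each, with equal levels on the dotted line. The 275 circRNAs called higher in Eph4-ev lie above the line and the 149 called lower lie below it; points on the left or bottom edge had 0 reads in 1 line.

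The most abundant circRNA of Eph4-ev was the single-exon ring of Pvt1 (chr15:62107148-62107465, plus strand, mm10), a long noncoding RNA gene next to Myc. This ring is exon 2, 318 bases long. It had 13051, 13116 and 16130 RPM in Eph4-ev, against 25168, 18059 and 23572 RPM in Melan-a. Every Eph4-ev library lay below every Melan-a library, with means of 14099 ± 1759 and 22266 ± 3730 RPM (SD, n = 3 each) and a log2 fold of -0.66 ± 0.20 (SE, adjusted p = 0.022 by edgeR). The call was lost without Eph4-ev replicate 1, 2 or 3 or without Melan-a replicate 1, at edgeR adjusted p of 0.0793 to 0.208. In the tumour lines the order was the other way round, at 17612 ± 2002 RPM in 4T1 and 12516 ± 1470 RPM in B16F10 (SD, n = 3 each), with a log2 fold of 0.49 that missed the threshold (edgeR adjusted p = 0.0784).

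The rest of the 5 most abundant rings of Eph4-ev came from protein-coding genes and were all higher in Eph4-ev than in Melan-a. Their junctions are printed with that of Pvt1 because a junction is the only stretch that identifies a ring. Each line gives the last 30 and then the first 30 bases of the ring in transcript direction, and the capitals are the 10 bases on each side of the back-splice.
Pvt1 exon 2: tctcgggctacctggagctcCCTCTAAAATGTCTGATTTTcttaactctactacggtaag
Nfix exon 2: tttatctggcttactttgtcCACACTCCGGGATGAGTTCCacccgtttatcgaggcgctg
Dtnb exons 5 to 8: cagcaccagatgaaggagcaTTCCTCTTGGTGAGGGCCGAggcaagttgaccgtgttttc
Vapa exons 2 to 4: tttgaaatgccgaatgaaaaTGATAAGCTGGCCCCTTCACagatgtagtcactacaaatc
Ptbp3 exons 3 to 5: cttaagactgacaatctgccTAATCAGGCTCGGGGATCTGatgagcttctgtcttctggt
The sequences and exon numbers come from GENCODE M21 transcripts (GRCm38, the assembly of mm10), with all annotated exons between the ends taken as included, which junction reads do not show.

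Nfix encodes a transcription factor of the nuclear factor I family. Its exon 2 ring (chr8:84771784-84772315, minus strand) lies inside the coding sequence and had 12873, 11492 and 11611 RPM in Eph4-ev, against 439, 715 and 914 RPM in Melan-a. In reads these were 652, 651 and 645 in Eph4-ev, against 11, 24 and 23 in Melan-a. The log2 fold was 4.11 (SE 0.28, edgeR adjusted p = 5.38e-07). The tumour lines stood in the same order, with 17749 ± 1724 RPM in 4T1 and 675 ± 85 RPM in B16F10 (SD, n = 3 each) and a log2 fold of 4.71 (edgeR adjusted p = 2.6e-09), and the folds of the pairs did not differ past the threshold (interaction -0.60, SE 0.37, edgeR adjusted p = 0.326).

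Ptbp3 encodes a polypyrimidine tract-binding protein, which regulates splicing. Its ring of exons 3 to 5 (chr4:59514274-59524476, minus strand) had 7404, 8032 and 7831 RPM in Eph4-ev, against 718, 626 and 398 RPM in Melan-a, a log2 fold of 3.73 ± 0.28 (SE, adjusted p = 9.32e-07 by edgeR). Here the tumour lines did not follow. The ring averaged 1044 ± 620 RPM in 4T1 and 775 ± 108 RPM in B16F10, both closer to Melan-a than to Eph4-ev, and the interaction was 3.33 (SE 0.52, edgeR adjusted p = 0.000149).

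Dtnb encodes beta-dystrobrevin, a member of the dystrophin-associated complex, and Vapa an endoplasmic reticulum membrane protein that tethers other organelles. The Dtnb ring (chr12:3617606-3648389, plus strand) had 9378, 9603 and 8875 RPM in Eph4-ev, against 2393, 3725 and 1789 RPM in Melan-a, a log2 fold of 1.81 ± 0.27 (SE, adjusted p = 0.000272 by edgeR). The Vapa ring (chr17:65592291-65595054, minus strand) had 7977, 8191 and 7633 RPM in Eph4-ev, against 2194, 2473 and 3617 RPM in Melan-a, a log2 fold of 1.52 ± 0.24 (SE, adjusted p = 0.000514 by edgeR). For both rings the lowest Eph4-ev library was above the highest Melan-a library. In the tumour lines the ranges of 4T1 and B16F10 overlapped for both, and the interactions were 1.85 for Dtnb and 1.97 for Vapa (edgeR adjusted p = 0.00397 and 0.00172).

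Melan-a was led by rings of Gigyf2, which encodes a partner in translational repression, and Elf2, an ETS-family transcription factor. The Gigyf2 ring of exons 4 to 8 (chr1:87364104-87380008, plus strand) had 6851, 5119 and 6139 RPM in Eph4-ev, against 28279, 19340 and 34066 RPM in Melan-a, a log2 fold of -2.17 ± 0.23 (SE, adjusted p = 2.14e-05 by edgeR). The Elf2 ring of exons 2 to 4 (chr3:51308050-51326035, minus strand), which reaches across the translation start, had 7740, 5702 and 6985 RPM in Eph4-ev, against 22336, 29293 and 24248 RPM in Melan-a, a log2 fold of -1.89 ± 0.21 (SE, adjusted p = 2.14e-05 by edgeR). The lines did not overlap for either ring. The ring of exons 6 and 7 of Alg12 (chr15:88811297-88812159, minus strand), a mannosyltransferase of N-glycan assembly, had 2132, 2048 and 2268 RPM in Eph4-ev, against 10649, 5066 and 11329 RPM in Melan-a (-2.06 ± 0.29 SE as a log2 fold, adjusted p = 0.000209 by edgeR). Alg12 was nearly constant in Eph4-ev, while Melan-a replicate 2 stood well below the other Melan-a libraries. The coding junctions of this group read as follows.
Gigyf2 exons 4 to 8: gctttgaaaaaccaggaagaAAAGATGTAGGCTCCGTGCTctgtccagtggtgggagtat
Alg12 exons 6 to 7: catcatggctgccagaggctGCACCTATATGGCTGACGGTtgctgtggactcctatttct

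The fourth joined ring of Melan-a by mean level rests on fewer libraries. The ring of exons 2 to 6 of Phf21a (chr2:92214049-92230724, plus strand), whose protein binds unmethylated histone H3, had 0, 0 and 0 reads in Eph4-ev, against 358, 607 and 0 reads in Melan-a. It also had 0, 66 and 0 reads in 4T1 and 289, 0 and 0 reads in B16F10. The ring was not tested because too few libraries had reads, and its Melan-a level is therefore given without a fold. Among joined circRNAs with at least 20 reads in each of the other libraries of the line, 3 were at 0 in Eph4-ev replicate 1, 1 in replicate 2 and 8 in replicate 3, and in Melan-a the Phf21a ring was the only such case.

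Among rings that averaged at least 5 reads in both lines, the 5 highest folds were those of Tns3, Nfix, Ptbp3, Papd7 and Crim1. Tns3 encodes tensin 3, which links integrins to actin at focal adhesions. Its ring of exons 18 to 20 (chr11:8478225-8479665, minus strand) had 7207, 5896 and 6769 RPM in Eph4-ev, against 319, 179 and 318 RPM in Melan-a, and the log2 fold of 4.62 ± 0.32 (SE, adjusted p = 5.38e-07 by edgeR) was the highest of this group. Another Tns3 ring, exons 14 to 16 (chr11:8518199-8519570), had 7305, 4678 and 6121 RPM in Eph4-ev, against 558, 685 and 278 RPM in Melan-a (3.54 ± 0.34 SE as a log2 fold, adjusted p = 1.06e-05 by edgeR). The 2 rings share no exon, and neither overlapped between the lines. Both were also higher in 4T1 than in B16F10, with log2 folds of 2.79 and 2.49 (edgeR adjusted p = 3.18e-05 and 7.03e-06).
Tns3 exons 18 to 20: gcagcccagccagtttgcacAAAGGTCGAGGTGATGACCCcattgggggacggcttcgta
Tns3 exons 14 to 16: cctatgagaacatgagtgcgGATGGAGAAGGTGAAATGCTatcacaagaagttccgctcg

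Papd7 encodes a noncanonical poly(A) polymerase. Its ring of exons 2 to 4 (chr13:69512890-69515903) had 133, 152 and 177 reads in Eph4-ev, against 10, 5 and 4 reads in Melan-a, or 2832 ± 308 and 236 ± 141 RPM (SD, n = 3 each), a log2 fold of 3.61 ± 0.39 (SE, adjusted p = 2.14e-05 by edgeR). Crim1 encodes a membrane protein that binds bone morphogenetic proteins. Its ring of exons 3 to 4 (chr17:78279973-78281366) had 89, 130 and 149 reads in Eph4-ev, against 6, 10 and 0 reads in Melan-a, or 2245 ± 465 and 179 ± 158 RPM (SD, n = 3 each), a log2 fold of 3.56 ± 0.53 (SE, adjusted p = 0.000291 by edgeR). Both had interactions past the threshold, at 3.22 and 2.35 (edgeR adjusted p = 0.000364 and 0.0352), beside averages in 4T1 and B16F10 of 1839 and 1384 RPM for Papd7 and of 1435 and 613 RPM for Crim1.

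In the other direction the lowest folds of this group belonged to Ncoa2, Telo2, Eprs, Elf2 and Gbe1. The ring of exons 2 to 4 of Ncoa2 (chr1:13221307-13286025), a coactivator of steroid receptors, had 217, 177 and 162 RPM in Eph4-ev, against 3789, 3725 and 3419 RPM in Melan-a (-4.28 ± 0.32 SE as a log2 fold, adjusted p = 9.15e-07 by edgeR). The ring of exons 4 to 7 of Gbe1 (chr16:70433545-70441319), the glycogen branching enzyme, had 454, 530 and 504 RPM in Eph4-ev, against 6182, 2473 and 5923 RPM in Melan-a (-3.28 ± 0.36 SE as a log2 fold, adjusted p = 2.23e-05 by edgeR). In each of them every Melan-a library stood several-fold above the highest Eph4-ev library. The ring of Telo2 (chr17:25110227-25113257), which stabilises the kinases related to phosphatidylinositol kinase, averaged 140 ± 51.7 RPM in Eph4-ev and 2297 ± 876 RPM in Melan-a, and that of the tRNA synthetase gene Eprs (chr1:185386246-185397267) averaged 126 ± 97.2 RPM in Eph4-ev and 1937 ± 808 RPM in Melan-a (SD, n = 3 each). Their log2 folds were -4.01 and -3.92 (edgeR adjusted p = 2.14e-05 and 0.000129).

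Elf2 gave another ring to this group (chr3:51299783-51326035), which shares the upstream end of the other ring and reaches further downstream. It had 474, 424 and 144 RPM in Eph4-ev, against 3510, 4917 and 3339 RPM in Melan-a, a log2 fold of -3.50 ± 0.38 (SE, adjusted p = 2.23e-05 by edgeR). Both Elf2 rings were lower in Eph4-ev, and both were lower in 4T1 than in B16F10, with log2 folds of -2.19 and -6.03 (edgeR adjusted p = 7.36e-06 and 1.36e-06). Junctions of the lower group that lie in coding sequence are shown for their size of fold.
Gbe1 exons 4 to 7: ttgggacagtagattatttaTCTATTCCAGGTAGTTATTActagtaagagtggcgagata
Telo2 exons 3 to 6: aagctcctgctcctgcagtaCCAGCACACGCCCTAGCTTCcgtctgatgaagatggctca
Eprs exons 11 to 15: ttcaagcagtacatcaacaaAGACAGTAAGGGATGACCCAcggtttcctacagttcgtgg

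**Figure D2:**
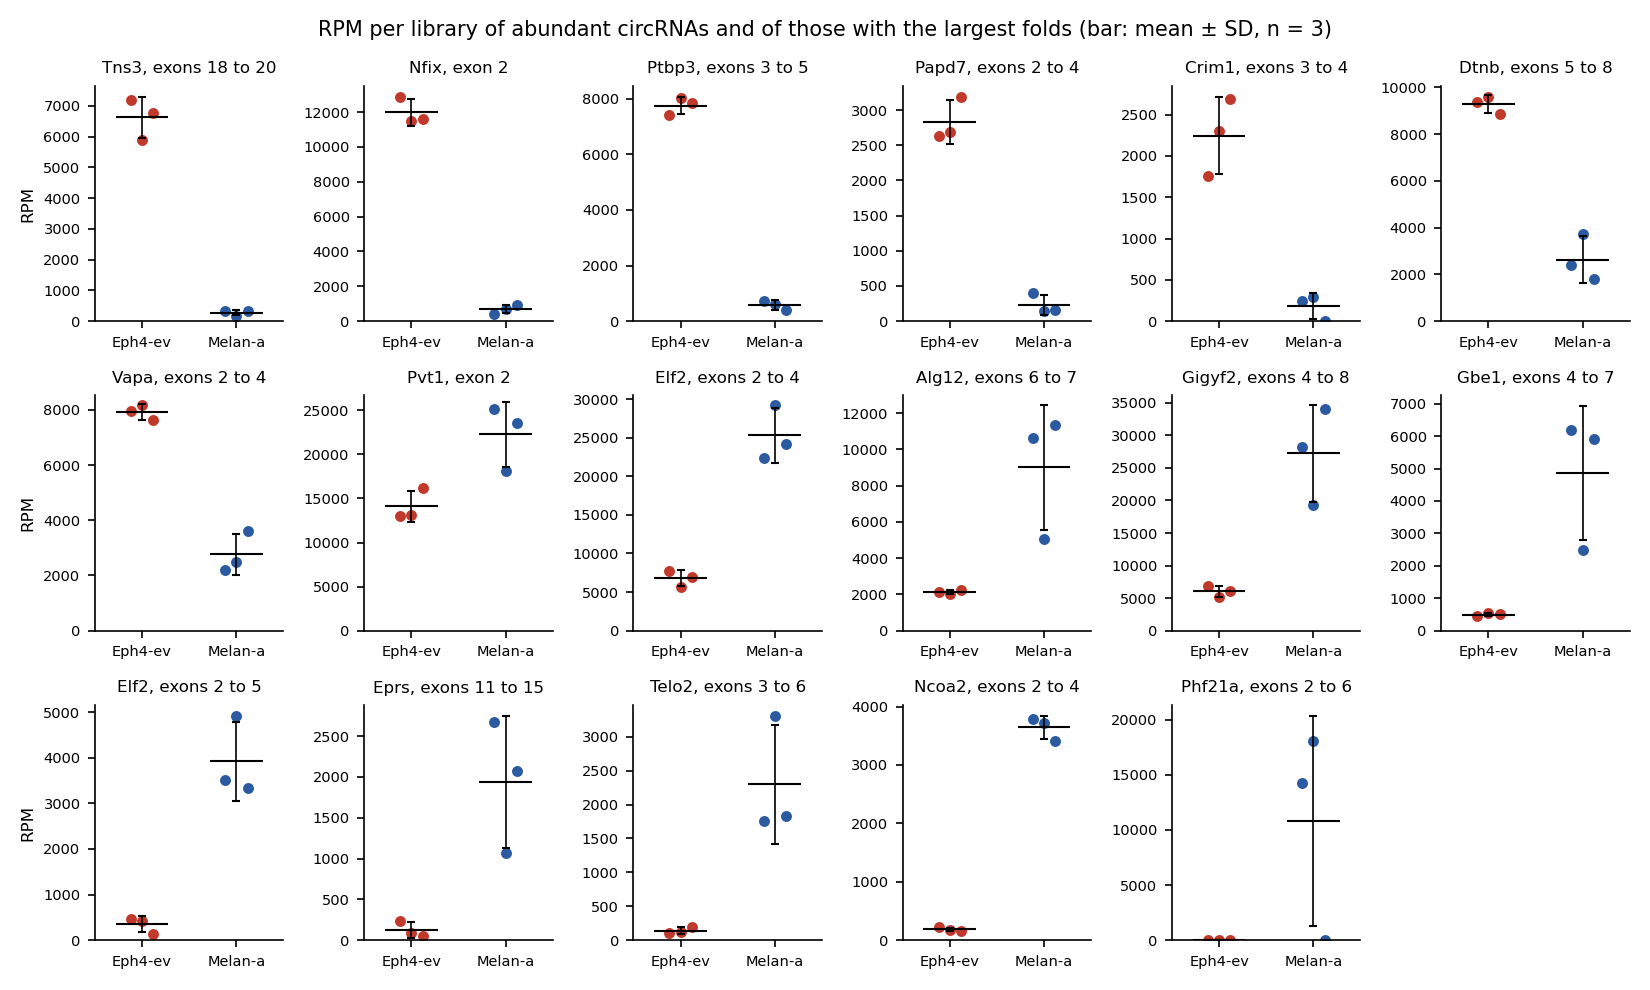
RPM per library of the joined rings that are the most abundant of a line or have the largest folds, ordered by fold, with Eph4-ev left and Melan-a right in each panel; dots are libraries and bars give the mean and SD of n = 3. Apart from Phf21a, which has a Melan-a library at 0, no panel has overlapping lines.

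Some rings had reads in only 1 of the lines. With at least 2 reads in each library of 1 line and 0 in each of the other, 386 were found in Eph4-ev alone and 36 in Melan-a alone. The rule chose them on their counts, so their calls (96 of 96 tested and 27 of 27 tested) are no separate evidence, and the join keeps a Melan-a ring with 0 reads in Eph4-ev only if 4T1 has it, which all 36 do. Of the 386, 260 (67.4%) had reads in 4T1 and 149 (38.6%) in B16F10. Of the 378 with 1 host, 194 had a host with other rings, joined or not, read in Melan-a. None had a junction within 10 bases of a ring read there. Thinned to equal depth, 195 rings met the rule for Eph4-ev and 45 for Melan-a.

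The leading rings of Eph4-ev alone came from Nf2, which encodes the tumour suppressor merlin, Tmeff1, Myo5b, Mad1l1 and Vav3. The Nf2 ring of exons 14 to 16 (chr11:4780578-4784563) had 91, 78 and 96 reads in Eph4-ev, against 0, 0 and 0 reads in Melan-a, which is at least 45.4-fold higher against a floor of 3 reads over the Melan-a libraries. Other Nf2 rings had 546 reads in Eph4-ev and 45 reads in Melan-a. The Tmeff1 ring of exons 2 to 5 (chr4:48604581-48617331), from a gene for a membrane protein with follistatin-like modules, had 80, 72 and 90 reads in Eph4-ev, against 0, 0 and 0 reads in Melan-a (at least 41.5-fold higher). The ring of Myo5b, a motor of apical recycling in epithelia, had 67, 77 and 53 reads in Eph4-ev and none in Melan-a (at least 33.8-fold higher). The rings of Mad1l1, a spindle checkpoint gene, and Vav3, an exchange factor for small GTPases, had 60 to 68 and 47 to 72 reads in Eph4-ev and none in Melan-a, at least 32.6-fold and 29.5-fold higher. Myo5b and Vav3 rings had 0 reads in every B16F10 library too.

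Melan-a alone had rings of Bckdhb, a subunit of the branched-chain ketoacid dehydrogenase, of the amino acid transporter Slc38a1, of Fam160b1, of the synaptic active zone gene Rims2 and of the ubiquitin ligase Nedd4. The Bckdhb ring of exons 4 to 8 (chr9:83988776-84012619) had 0, 0 and 0 reads in Eph4-ev, against 50, 52 and 22 reads in Melan-a, at least 80.3-fold lower in Eph4-ev. The Slc38a1 ring (chr15:96609856-96624169) had 0 reads in every Eph4-ev library, against 30, 32 and 36 reads in Melan-a (at least 63.5-fold lower), and the Fam160b1 ring (chr19:57378549-57379175) 0 against 19, 48 and 32 reads (at least 64.1-fold lower). All of these had reads in every 4T1 library as well, for example 25, 51 and 106 reads of the Fam160b1 ring. The Rims2 ring had 0 reads in Eph4-ev and 32, 11 and 31 reads in Melan-a (at least 47.9-fold lower). The Nedd4 ring of exons 2 to 6 (chr9:72669952-72686114) had 0 reads in Eph4-ev and 9, 60 and 16 reads in Melan-a (at least 55.1-fold lower), while other Nedd4 rings had 66 reads in Eph4-ev and 51 reads in Melan-a. Junctions of the leading coding ring of each kind, and of the Nedd4 ring, are given below.
Tmeff1 exons 2 to 5: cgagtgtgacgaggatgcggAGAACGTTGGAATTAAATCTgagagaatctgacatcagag
Bckdhb exons 4 to 8: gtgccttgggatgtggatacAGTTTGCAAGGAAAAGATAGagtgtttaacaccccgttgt
Nedd4 exons 2 to 6: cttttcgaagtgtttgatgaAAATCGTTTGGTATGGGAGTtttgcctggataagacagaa

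Rings of 1 host mostly moved together. Of 56 hosts with at least 2 called rings, 35 had all of them higher in Eph4-ev, 16 had all lower and 5 had rings called in each direction. Arhgap10, which encodes a GTPase-activating protein, and Dtnb had 6 higher rings each, Nf2 had 4, and the formin gene Diaph3, the cytolinker gene Dst, Tmeff1, Tns3 and Ube2cbp had 3 each. In the lower direction Tasp1, a protease that cleaves the methyltransferase MLL, had 4, and Elf2 and the selenocysteine elongation factor gene Eefsec had 3 each. Of 547 hosts with several rings and at least 20 reads in each line, 421 (77.0%) had the same leading ring in Eph4-ev and Melan-a. Rings of 1 host share its transcript and are not replicates of each other.

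The 5 hosts with calls in each direction were Nudcd3, Rad52, Rere, Zfp827 and Spen. Nudcd3 encodes a protein that stabilises dynein. Its exon 2 ring had 73, 100 and 67 reads in Eph4-ev, against 12, 10 and 11 reads in Melan-a (1.87 ± 0.37 SE as a log2 fold, adjusted p = 0.00222 by edgeR), and its ring of exons 4 and 5 had 0, 0 and 0 reads in Eph4-ev, against 4, 4 and 9 reads in Melan-a (at least 11.01-fold lower, edgeR adjusted p = 0.00887). The exon 2 ring had more reads than the other in every Eph4-ev and Melan-a library. In the tumour lines the ring of exons 4 and 5 had 0, 2 and 2 reads in 4T1 and 8, 10 and 8 reads in B16F10, where it exceeded the exon 2 ring with 6, 0 and 3 reads. Both lie in coding sequence, on the minus strand of chromosome 11.
Nudcd3 exon 2: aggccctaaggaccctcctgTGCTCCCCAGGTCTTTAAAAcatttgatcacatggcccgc
Nudcd3 exons 4 to 5: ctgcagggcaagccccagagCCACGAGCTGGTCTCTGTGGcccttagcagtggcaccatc

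Rad52 acts in homologous recombination. Its ring of exons 2 to 5 had 20, 32 and 24 reads in Eph4-ev, against 0, 3 and 0 reads in Melan-a, a ratio of 13.0 with an exact 95% counting interval of 4.29 to 64.6 (edgeR adjusted p = 0.00872), and its ring of exons 10 and 11 had 1362, 1624 and 1548 RPM in Eph4-ev, against 3869, 1967 and 3737 RPM in Melan-a (log2 fold -1.07, adjusted p = 0.0162 by edgeR). The Rere rings, from a transcriptional corepressor gene, start at the same exon 2. The ring of exon 2 alone averaged 968 ± 379 RPM in Eph4-ev and 312 ± 117 RPM in Melan-a, and the ring of exons 2 to 4 averaged 309 ± 64.1 RPM in Eph4-ev and 922 ± 459 RPM in Melan-a (SD, n = 3 each), with log2 folds of 1.66 and -1.58 (edgeR adjusted p = 0.0188 and 0.0216). Rings of the zinc finger gene Zfp827 from exons 6 to 8 averaged 2461 ± 29.2 RPM in Eph4-ev and 1160 ± 549 RPM in Melan-a, and those from exons 2 to 5 averaged 136 ± 26.9 RPM in Eph4-ev and 838 ± 571 RPM in Melan-a (SD, n = 3 each), with log2 folds of 1.10 and -2.60 (edgeR adjusted p = 0.0216 and 0.00493). Each of these 6 calls was lost when some single library was left out, at edgeR adjusted p of 0.0517 to 0.115.

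**Figure D3:**
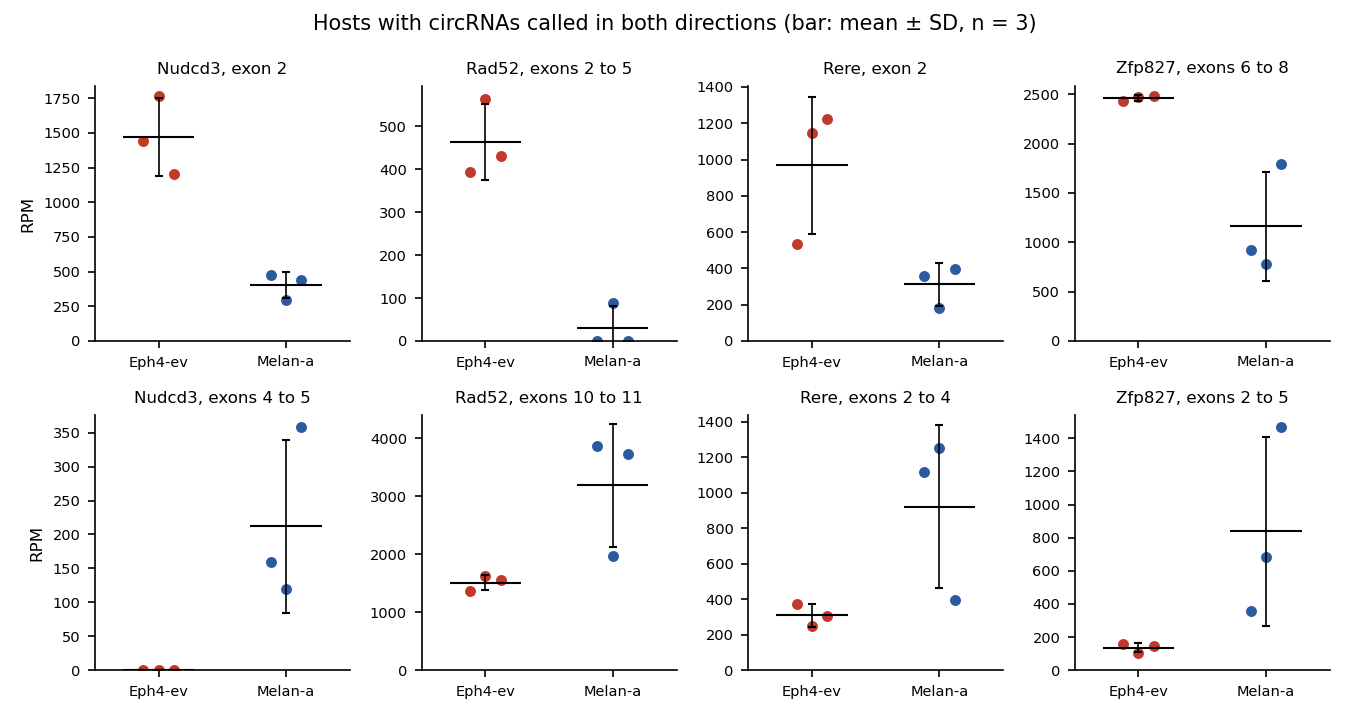
RPM per library of rings of the same host that were called higher (top) and lower (bottom) in Eph4-ev, for 4 of the 5 such hosts, with Eph4-ev left and Melan-a right; dots are libraries and bars give the mean and SD of n = 3. The Rere rings start at the same exon and lie at 968 and 309 RPM in Eph4-ev and at 312 and 922 RPM in Melan-a.

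Reads were also summed over the joined rings of each host. Of 1264 hosts tested, 247 were higher in Eph4-ev (19.5%) and 112 lower (8.86%), together 28.4%. Scaled to reads of the joined circRNAs alone, 199 were higher and 141 lower, and without Eph4-ev replicate 2 the higher count was 161. The median log2 fold over all tested hosts was 0.41, with 772 positive, and the scaling to joined reads moved it to 0.17. A host sum is a measure of its circular RNA, not of its linear RNA. It covers joined rings only, and the join leaves out more reads of Melan-a than of Eph4-ev. Of the genes listed below, 32 of 58 chromatin regulators and 2 of 61 epithelial genes had Melan-a reads in rows of the melanocyte table alone. How far this moved the fold of a host was not tested.

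Epithelial hosts were higher in Eph4-ev. Of 61 listed genes, 25 have joined rings and 12 were tested. Of these, 9 were higher and none lower, beside 19.5% and 8.86% of all tested hosts. The median log2 fold was 3.41 when hosts at 0 in Melan-a are set to their bound. The higher hosts included the adhesion gene Epcam, Krt7, the polarity gene Inadl, the splicing regulator Esrp1, the transcription factor Grhl2, Myo5b, Pkp2 of desmosomes and Mllt4, which encodes afadin. Inadl rings had 76, 80 and 82 reads in Eph4-ev, against 1, 0 and 0 reads in Melan-a (edgeR adjusted p = 2.19e-06). Pkp2 rings had 56, 50 and 54 reads in Eph4-ev, against 0, 0 and 0 reads in Melan-a, at least 27.4-fold higher (edgeR adjusted p = 1.14e-05), and Myo5b rings 72, 95 and 64 reads in Eph4-ev, against 0, 0 and 0 reads in Melan-a, at least 39.6-fold higher (edgeR adjusted p = 2.9e-06). Of the 3 not called, Pard3 had 40, 53 and 49 reads in Eph4-ev, against 14, 13 and 17 reads in Melan-a (log2 fold 0.70).

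Pigment genes could hardly be compared. Of 40 listed melanocyte and pigment genes, 10 have joined rings, 6 were tested and none was called, with a median log2 fold of -0.70. The melanocyte table alone holds the rings of 13 of the listed genes, including Tyr, Tyrp1, Dct, Pmel, Oca2 and Sox10, so the joined set has no value for them in Eph4-ev. The 6 tested are genes of vesicle and lysosome traffic or early lineage genes. Ap3b1, a subunit of the AP-3 adaptor, had 41, 53 and 36 reads in Eph4-ev, against 7, 5 and 16 reads in Melan-a (log2 fold 1.20, adjusted p = 0.0817 by edgeR). Myo5a, the motor that holds melanosomes in the cell periphery, had 4, 11 and 6 reads in Eph4-ev, against 8, 17 and 3 reads in Melan-a (log2 fold -1.31, adjusted p = 0.222 by edgeR). Vps33a had 4, 14 and 11 reads in Eph4-ev, against 8, 11 and 6 reads in Melan-a (log2 fold -0.74, adjusted p = 0.463 by edgeR).

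Growth factor signalling hosts moved in both directions. Of 59 receptor tyrosine kinase, MAPK and PI3K genes, 20 were tested, with a median log2 fold of 0.68. Of these, 6 were higher, among them Fgfr2, Igf1r, Epha2 and Rasa2, and 1 was lower, beside 19.5% and 8.86% of all tested hosts. Rings of the receptor gene Fgfr2 had 78, 55 and 55 reads in Eph4-ev, against 0, 0 and 0 reads in Melan-a, at least 32.2-fold higher (edgeR adjusted p = 7.74e-06), and had 0 reads in every 4T1 and B16F10 library. Rings of the ephrin receptor gene Epha2 had 43, 48 and 50 reads in Eph4-ev, against 0, 0 and 0 reads in Melan-a, at least 24.2-fold higher (edgeR adjusted p = 2e-05). Rings of Igf1r, the insulin-like growth factor receptor, had 87, 97 and 97 reads in Eph4-ev, against 13, 8 and 2 reads in Melan-a (2.63 ± 0.46 SE as a log2 fold, adjusted p = 0.000321 by edgeR). Met and Braf were tested and not called.

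Of 30 TGF-beta and BMP genes 8 were tested, with a median log2 fold of 1.56. Tgfbr2, Smad1 and Ltbp1 were higher and none lower, beside 19.5% and 8.86% of all tested hosts. Rings of Ltbp1, which tethers latent TGF-beta in the matrix, had 39, 32 and 44 reads in Eph4-ev, against 0, 0 and 0 reads in Melan-a, at least 19.7-fold higher (edgeR adjusted p = 6.53e-05). Rings of the receptor gene Tgfbr2 had 64, 76 and 108 reads in Eph4-ev, against 0, 5 and 11 reads in Melan-a (2.96 ± 0.59 SE as a log2 fold, adjusted p = 0.000905 by edgeR). Rings of Smad1, a transducer of BMP signals, had 101, 176 and 159 reads in Eph4-ev, against 13, 27 and 30 reads in Melan-a (1.66 ± 0.34 SE as a log2 fold, adjusted p = 0.00106 by edgeR). All of them had the same order in 4T1 and B16F10, with log2 folds of 7.75, 3.94 and 1.27 (edgeR adjusted p = 0.000211, 0.000198 and 0.0142), the Ltbp1 value being a fit against B16F10 libraries at 0. Of 47 collagen, laminin, integrin and matrix genes only Itgb5 was tested, and it was not called.

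Genes that act on circRNA formation are themselves hosts. Of 35 listed, 9 were tested, with 3 higher, among them Ptbp3 and Esrp1, and Mbnl2 lower (median log2 fold 0.91). Among all tested hosts 19.5% were higher and 8.86% lower. Ptbp3 rings summed to 402, 511 and 505 reads in Eph4-ev, against 20, 28 and 11 reads in Melan-a (3.63 ± 0.27 SE as a log2 fold, adjusted p = 5.84e-08 by edgeR). Esrp1, which directs splicing in epithelia, had 30, 45 and 52 reads in Eph4-ev, against 1, 0 and 0 reads in Melan-a (edgeR adjusted p = 6.53e-05). The muscleblind gene Mbnl2 had 3, 4 and 11 reads in Eph4-ev, against 23, 40 and 23 reads in Melan-a (-3.17 ± 0.52 SE as a log2 fold, adjusted p = 0.000187 by edgeR). Its relative Mbnl1 had 21, 7 and 7 reads in Eph4-ev, against 10, 32 and 11 reads in Melan-a, and was not called (edgeR adjusted p = 0.0759).

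Chromatin regulators were the list with the most tested hosts. Of 58 genes 34 were tested, with 3 higher, among them Setd3 and Whsc1, and Arid1a, Arid1b, Kat6b and Dnmt3a lower, or 7 of 34 called, beside 28.4% of all tested hosts. The median log2 fold was 0.23. Rings of Arid1a, a subunit of the SWI/SNF remodeller, had 7, 7 and 14 reads in Eph4-ev, against 23, 24 and 30 reads in Melan-a (-2.43 ± 0.48 SE as a log2 fold, adjusted p = 0.000856 by edgeR). Rings of Whsc1, a histone H3 lysine methyltransferase gene, had 274, 275 and 273 reads in Eph4-ev, against 41, 98 and 46 reads in Melan-a (1.24 ± 0.26 SE as a log2 fold, adjusted p = 0.0014 by edgeR). Rings of the DNA methyltransferase gene Dnmt3a had 0, 2 and 0 reads in Eph4-ev, against 12, 12 and 7 reads in Melan-a (edgeR adjusted p = 0.00328).

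Of 43 cell cycle genes 12 were tested, and Cdk14 and E2f3 were higher, at edgeR adjusted p of 0.0343 and 0.0382. Among all tested hosts 19.5% were higher. Cdk14 rings had 21, 17 and 35 reads in Eph4-ev, against 3, 4 and 3 reads in Melan-a, and E2f3 rings 22, 13 and 12 reads in Eph4-ev, against 0, 3 and 0 reads in Melan-a. The Cdk14 call was lost in 14 of 16 alternatives, including each that left out 1 library, and the E2f3 call in 10 of 15, including 5 of the 6 that left out 1 library (all but Melan-a replicate 2). Anapc1, which was not called (log2 fold -2.23, adjusted p = 0.0534 by edgeR), was called lower in 6 of 16 alternatives. Of 42 hosts of well described circRNAs 33 were tested (median log2 fold 0.47). Of these, 9 were higher and 5 lower, beside 19.5% and 8.86% of all tested hosts. The higher hosts included Asph, Fbxw7, Fndc3b, Tulp4, Nfix, Arhgap10, Setd3 and Psd3, and the lower ones were Hipk3, Pvt1, Rims2, Elf2 and Gigyf2. Hipk3, a kinase gene known for an abundant exon 2 ring, had 136, 142 and 113 reads in Eph4-ev, against 94, 158 and 113 reads in Melan-a (log2 fold -0.84, adjusted p = 0.0122 by edgeR). No mesenchymal or neural crest gene had enough joined reads to test, with 1 of 30 and 3 of 28 listed in both tables, and of 22 immune genes the joined set holds none.

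**Figure D4:**
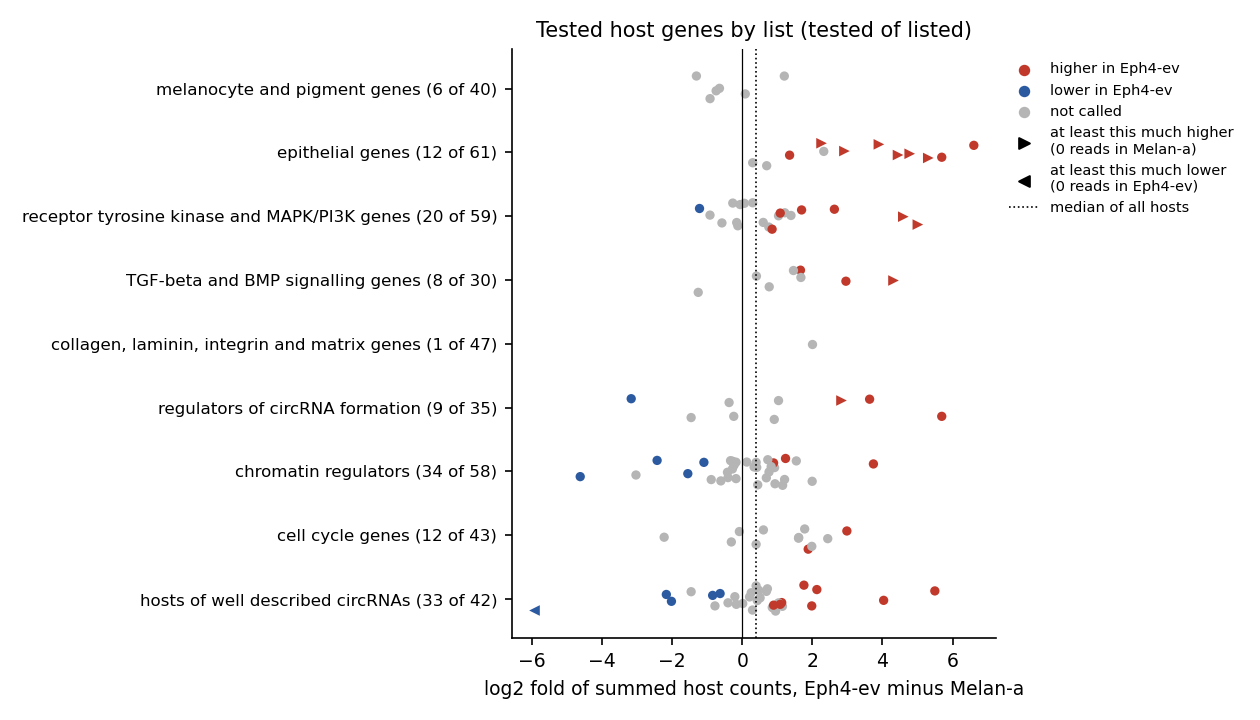
Log2 fold of summed host counts, Eph4-ev minus Melan-a, for each tested host of 9 lists, with the number tested of those listed; triangles are bounds for hosts at 0 in 1 line, the solid line is 0 and the dotted line is the median of all hosts, 0.41. All 12 epithelial hosts lie right of 0, and chromatin regulators lie on both sides.

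The tumour lines of the same tissues were set beside these differences. The pairs share no library, but each pair compares the same 2 tables, so tissue and table cannot be told apart here either. Between 4T1 and B16F10, 692 joined circRNAs were tested and 40.0% called. Across the 626 tested in both pairs the log2 folds correlated at 0.51 by Pearson's and 0.54 by Spearman's coefficient, a description across circRNAs, which are not independent. Of the 212 called between Eph4-ev and Melan-a, 168 (79.2%) had the same sign between 4T1 and B16F10, against 257 of 414 (62.1%) of those not called. The same call was made in both pairs for 99, which is 46.7% of these 212 and 40.9% of the 242 called between the tumour lines, and 8 were called in opposite directions. The difference between the pairs was itself called for 10.1% of 1518 circRNAs, with 89 (5.86%) higher and 64 (4.22%) lower for Eph4-ev against Melan-a than for 4T1 against B16F10. It was called for 75 of the 385 rings that were called between the non-tumour lines and could be tested for it.

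Among rings called alike in both pairs were those of Nfix, Tns3 and Elf2 given above, Mad1l1, Alg12 and St3gal6. The Mad1l1 ring of exons 5 to 9 (chr5:140295787-140303697) had 68, 62 and 60 reads in Eph4-ev and 0 reads in Melan-a, and 18, 35 and 69 reads in 4T1 and 1, 1 and 0 reads in B16F10. The ring of exons 3 to 7 of the sialyltransferase gene St3gal6 (chr16:58484763-58507614) had 0, 0 and 0 reads in Eph4-ev and 12, 35 and 20 reads in Melan-a, and 1, 0 and 0 reads in 4T1 and 19, 13 and 23 reads in B16F10. Both rings thus stood nearly at 0 in both lines of 1 tissue. Alg12 had log2 folds of -2.06 and -2.31, with an interaction of 0.25 (SE 0.47, edgeR adjusted p = 0.82).

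Of the 8 rings called in opposite directions, 6 were higher in Eph4-ev than in Melan-a and lower in 4T1 than in B16F10, among them those of Cntln, Ezh2, Acaca and Erbb2ip. The other 2 were lower in Eph4-ev than in Melan-a and higher in 4T1 than in B16F10, the Fam160b1 ring given above and a ring of Rhbdd1, a rhomboid-like protease gene, named after its values were seen. The Rhbdd1 ring had 6, 2 and 2 reads in Eph4-ev and 16, 13 and 9 reads in Melan-a, and 8, 7 and 14 reads in 4T1 and 2, 2 and 1 reads in B16F10. The ring of exons 6 to 12 of the centrosomal gene Cntln (chr4:84971131-85006524) had 17, 19 and 18 reads in Eph4-ev and 0, 0 and 0 reads in Melan-a, and 0, 0 and 0 reads in 4T1 and 12, 6 and 7 reads in B16F10. Erbb2ip encodes the scaffold protein erbin of the basolateral membrane. Its ring of exons 2 to 4 (chr13:103884143-103889285) averaged 3365 ± 203 RPM in Eph4-ev and 1280 ± 288 RPM in Melan-a, and 934 ± 145 RPM in 4T1 and 1715 ± 226 RPM in B16F10 (SD, n = 3 each). The Ezh2 ring of exons 2 to 8, from the gene of the Polycomb methyltransferase, averaged 934 ± 327 RPM in Eph4-ev and 328 ± 112 RPM in Melan-a, and 175 ± 198 RPM in 4T1 and 1010 ± 64.6 RPM in B16F10 (SD, n = 3 each). The Acaca ring of exons 2 to 3, from the gene of acetyl-CoA carboxylase, averaged 3172 ± 468 RPM in Eph4-ev and 1614 ± 357 RPM in Melan-a, and 1648 ± 468 RPM in 4T1 and 2917 ± 406 RPM in B16F10 (SD, n = 3 each). For Ezh2 and Acaca the call between the non-tumour lines was lost when scaled to joined reads (edgeR adjusted p = 0.0579 and 0.0612). It was also lost for Ezh2 without Eph4-ev replicate 1 or 2 or Melan-a replicate 1 or 2 (edgeR adjusted p of 0.0542 to 0.136), and for Acaca without Eph4-ev replicate 2 or 3 or Melan-a replicate 1 (edgeR adjusted p of 0.0692 to 0.0869).
Cntln exons 6 to 12: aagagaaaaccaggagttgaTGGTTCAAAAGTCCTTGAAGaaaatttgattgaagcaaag

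**Figure D5:**
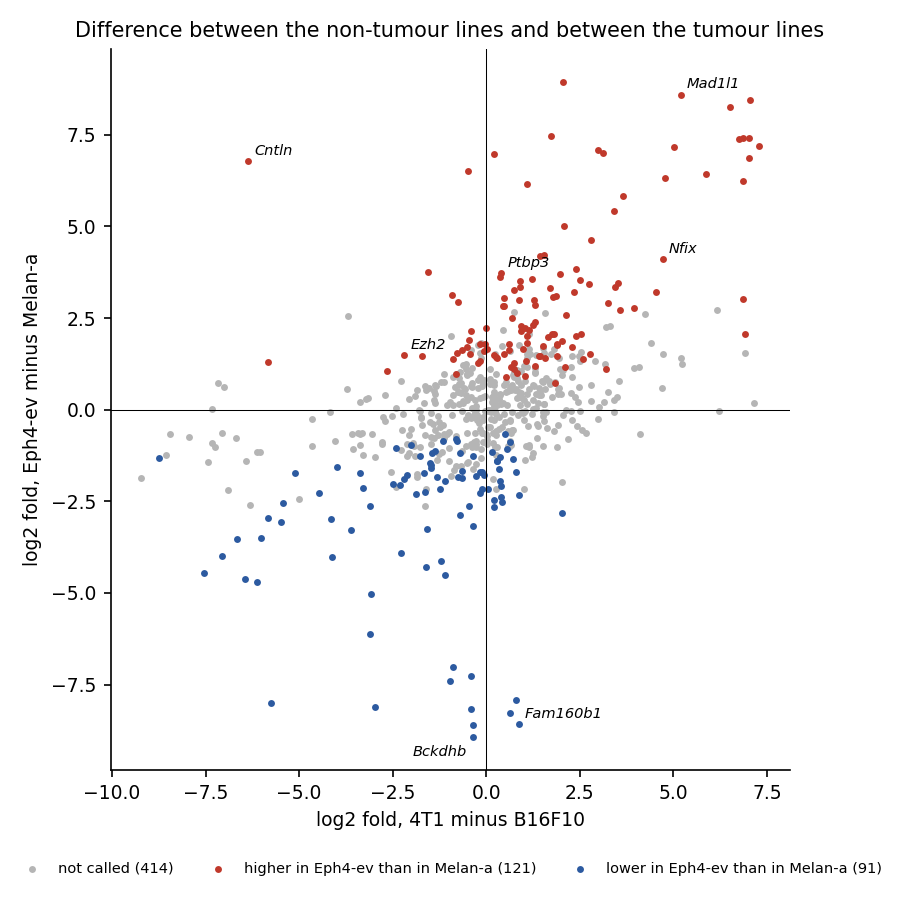
Log2 fold of Eph4-ev minus Melan-a (vertical axis) against log2 fold of 4T1 minus B16F10 (horizontal axis) for the 626 circRNAs tested in both pairs, coloured by the call between the non-tumour lines. Of the 212 called, 168 have the same sign on both axes; Cntln lies at the upper left, and folds of rings with a line at 0 depend on the prior count.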

How the data were processed

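Total RNA was treated with RNase R and sequenced, and CIRI2 (with BWA-MEM) and CIRCexplorer2 (with TopHat) called the circRNAs, per the labels' protocols, with mm10 per the submitters' processing notes. How the callers were combined is not given in the sources used here. The deposited counts are, by their headers and values, unscaled reads of each back-splice. The deposited RPM columns are those counts scaled to a column total of 1000000, by their values. Whole reads were recovered from 100% of RPM values within 0.01. All per-sample columns matched a sample. Host names were taken from the mammary table, because the other holds 18 turned into dates. Rows with several hosts (145) stayed out of host sums.

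Counts were tested with edgeR 4.0.16 (quasi-likelihood F test, R 4.3.3) on the 6 libraries, with column totals as library sizes and filterByExpr (min.count 5, min.total.count 10). P-values were adjusted (Benjamini-Hochberg) over all tested features, and SE came from the F statistic. The tumour pair was fitted alone, and the interaction over all 12 libraries. A line at 0 was set to a floor of 3 reads over its libraries. The labels mention no molecular identifiers, so intervals and floors cover counting error only. Exact permutation tests used scipy 1.17.1. Exons and sequences came from GENCODE M21.

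Alternatives were TMM and RLE factors, joined reads as library size, DESeq2 1.42.0, no filter, min.count 10, limma-voom with quality weights (limma 3.58.1), the replicate number as a block, a fit over 12 libraries, thinning, other detection minimums and leaving out each library. Counting rows of 1 table as 0 in the other was chosen after seeing the data. CircRNAs named by rule are all joined ones. They are the 5 most abundant of each line and the 5 most abundant found in 1 line alone. The 5 largest folds in each direction whose mean was 5 reads or more in each line are also named. So are up to 4 each called alike or oppositely in the pairs or from hosts with calls in each direction. Up to 3 hosts per list with the smallest p are given in full. Some hosts of the lists are counted there but not reported here by name. Other hosts and the hosts with many calls were chosen after their values were seen. The members and the 12 lists were chosen with earlier results of these data known.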

Additional observations from a re-analysis of the deposited data

Results flagged for a closer look

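For 21 of the circRNAs described above, the difference between Eph4-ev and Melan-a was not that between 4T1 and B16F10, by edgeR's test of the interaction over all 12 libraries. Values are the log2 fold of Eph4-ev minus Melan-a less that of 4T1 minus B16F10, with its adjusted p from edgeR. The interaction was positive for Ptbp3 (3.33, edgeR adjusted p = 0.000149), Papd7 (3.22, edgeR adjusted p = 0.000364), Crim1 (2.35, edgeR adjusted p = 0.0352), Vapa (1.97, edgeR adjusted p = 0.00172), Dtnb (1.85, edgeR adjusted p = 0.00397) and the Tns3 ring of exons 18 to 20 (1.82, edgeR adjusted p = 0.0278). It was negative for Ncoa2 (-2.65, edgeR adjusted p = 0.00177), Pvt1 (-1.15, edgeR adjusted p = 0.00684), the Zfp827 ring of exons 6 to 8 (-2.10, edgeR adjusted p = 0.00656) and the Rad52 ring of exons 10 and 11 (-1.61, edgeR adjusted p = 0.0268). These circRNAs were named for their levels, folds or calls between Eph4-ev and Melan-a, so the choice favours such differences. Rings chosen as called in opposite directions differ between the pairs by that choice, and their interactions, 3.67 for Ezh2, 2.28 for Erbb2ip and 1.79 for Acaca, are given as a description.

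For rings with a line at 0 the size depends on the prior count, and the choice bears on the sign, so these values too are a description. With reads in Eph4-ev and 0 in Melan-a, the values were 13.27 for Cntln, which was chosen as called in opposite directions, 9.83 for Nf2 and 6.48 for Tmeff1. With reads in Melan-a and 0 in Eph4-ev, they were -9.06 for Fam160b1, -8.53 for Nedd4, -8.18 for Bckdhb, -7.89 for Slc38a1 and -5.73 for Rims2. Rings at 0 in Eph4-ev are in the joined set only if 4T1 has reads of them, so a negative value was favoured by the join and is no result.

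Abundant rings of Melan-a lie outside the joined set, since the mammary table does not list them, and so have no value in Eph4-ev. The highest was a ring of exons 9 to 13 of the collagen gene Col28a1 (chr6:8127284-8158174), with 0 reads in every B16F10 library, against 335, 452 and 354 reads in Melan-a, or 13634 ± 383 RPM (SD, n = 3). Aff3 followed with 5085 RPM and the melanosome gene Pmel with 4768 RPM. The Slc7a11 ring, from the cystine transporter gene, averaged 4276 RPM, but with 141, 11 and 173 reads its replicates differed widely. Srgap1 averaged 2796 RPM. In the mammary table, Eph4-ev replicate 3 had 1893 reads in rows the melanocyte table does not list, against 86 in replicate 1 and 105 in replicate 2, and 402 of the 564 such rows had reads in this library alone. Whether this library differs in other ways was not tested.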

How the results depend on the processing

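No named circRNA or host changed direction under any alternative. Named circRNAs kept their side of the threshold in 674 of 715 alternative tests and lost a call in 41. Named hosts kept it in 362 of 393, lost a call in 24 and gained a call in 7 (Anapc1 and Ap3b1). Leaving out 1 library at a time gave 143 to 264 circRNAs higher and 90 to 121 lower, 161 to 279 hosts higher and 82 to 124 lower, a difference in detected circRNAs of 2003.5 to 2529.5 and in the share of the 10 most abundant of -4.74 to -3.99 percentage points. Interactions numbered 60 to 100 higher and 42 to 64 lower, with 42 lower without Eph4-ev replicate 2 or B16F10 replicate 1. Rings found in Eph4-ev alone numbered 483 to 650 and in Melan-a alone 47 to 64, since fewer libraries must then meet the rule; they passed 1.5 times without Eph4-ev replicate 1 or 3 and, for Melan-a, without Eph4-ev replicate 1 or 2 or Melan-a replicate 1 or 3. At a minimum of 1 read they were 580 and 55, of 5 reads 156 and 18, and after thinning 195 and 45. With rows of 1 table counted as 0 in the other, 231 circRNAs were lower, by the added rows. Replicate numbers did not pair the libraries (same-number correlations of deviations 0.013, 0.015 and -0.019); with the replicate block 229 circRNAs were higher and 118 lower, 335 of them also called without it, and the Pvt1 ring, the Nudcd3 ring of exons 4 and 5, Cdk14 and E2f3 were not called (edgeR adjusted p = 0.0527, 0.0525, 0.101 and 0.0745). Melan-a depth limits low rings, since 3 reads there are 89.4 to 120 RPM.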

Other observations

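Rings of pigment genes that the melanocyte table alone lists were read in both pigment lines, and these rows give no value in Eph4-ev. Rings of the tyrosinase gene Tyr summed to 21, 24 and 23 reads in B16F10 and to 20, 41 and 29 reads in Melan-a. Rings of Dct, which acts later in melanin synthesis, summed to 4, 9 and 4 reads in B16F10 and to 6, 23 and 1 reads in Melan-a. Those of the channel gene Trpm1 summed to 12, 4 and 9 reads in B16F10 and to 32, 25 and 15 reads in Melan-a. Sox5, a transcription factor gene of the neural crest, gave a ring of exons 2 and 3 that had 38, 27 and 39 reads in B16F10 and 50, 71 and 47 reads in Melan-a. Totals differ between these libraries, and the lines were not tested against each other.

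Circles from the X chromosome took 1.29%, 1.34% and 1.28% of joined reads in Eph4-ev and 0.857%, 1.11% and 0.797% in Melan-a. The lines did not overlap, and the exact two-sided permutation p of 0.1 is the smallest the design allows.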
